A study of Cavia porcellus with 12 samples.

Results

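The genes described here build the peroxisome and work inside it. Of 28 genes listed by name (11 peroxins and 17 enzymes and transporters), the 27 with a row in the deposited expression table were taken, which was every peroxin and 16 enzymes, out of 11896 genes in that table. The remaining name, *ABCD3*, was not analysed here. None of the 27 shared its count row with another symbol.

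Liver RNA came from 12 female Dunkin Hartley guinea pigs, all with 25 weeks on their diet, which arrived at 10 weeks of age and were acclimatised for 1 week. The 6 control animals (numbers 5, 10, 31, 32, 45 and 56) ate chow and were healthy, and the 6 NASH animals (numbers 2, 9, 11, 20, 41 and 65) ate a high-fat diet, rich in fat, sucrose and cholesterol, and had non-alcoholic steatohepatitis. The NASH animals were picked for bridging fibrosis and the controls at random among animals without NASH or fibrosis, so that diet and disease cannot be told apart. No animal carried an altered gene, and each was sampled once, from the left lateral lobe of a liver that had not been perfused. The measurement was messenger RNA sequencing, with 16980274 to 28636467 counts per control and 23704607 to 33091460 per NASH animal.

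Peroxisomes are small organelles bounded by a single membrane. Their matrix enzymes are made in the cytosol and imported already folded, by receptors that recognise a short targeting signal, dock at the membrane, release the cargo and are pulled back out after ubiquitination. Membrane proteins are inserted by a separate set of peroxins, and further peroxins elongate the organelle before it divides. In liver, peroxisomes shorten very long-chain and branched fatty acids, finish the side chain of bile acids, convert glyoxylate to glycine and break down the hydrogen peroxide that these oxidations make. Several of the enzymes are classical targets of the nuclear receptor PPARA in mice and rats. Whether PPARA drives them, or the other PPARA targets named below, in guinea pigs was not tested.

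Of the 27 members, 21 were lower in NASH and 0 were higher (edgeR quasi-likelihood test, adjusted p under 0.05 after Benjamini-Hochberg adjustment over 11896 genes). No member was higher at an unadjusted p under 0.05 either, nor with DESeq2 or limma-voom. Among all genes tested, 54.2% passed in either direction, 26.7% lower and 27.6% higher. The groups did not overlap, with every NASH animal under every control, for 17 of the 27 members, against 15.7% of all genes. The members' median log2 fold change was -0.68, beside -0.0069 over all genes. Enzymes made up 14 of the 21 lower genes and peroxins 7. All these values rest on scaling factors (TMM) that equalise the bulk of the genes between animals. These factors were 0.801 to 0.873 in controls and 1.116 to 1.244 in NASH animals, and with library size alone the median of all genes moved to 0.48, where 1 peroxin and 10 enzymes were lower and 2 peroxins (*PEX2* and *PEX14*) and 1 enzyme (*ACOT8*) were higher.

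**Figure D1:**
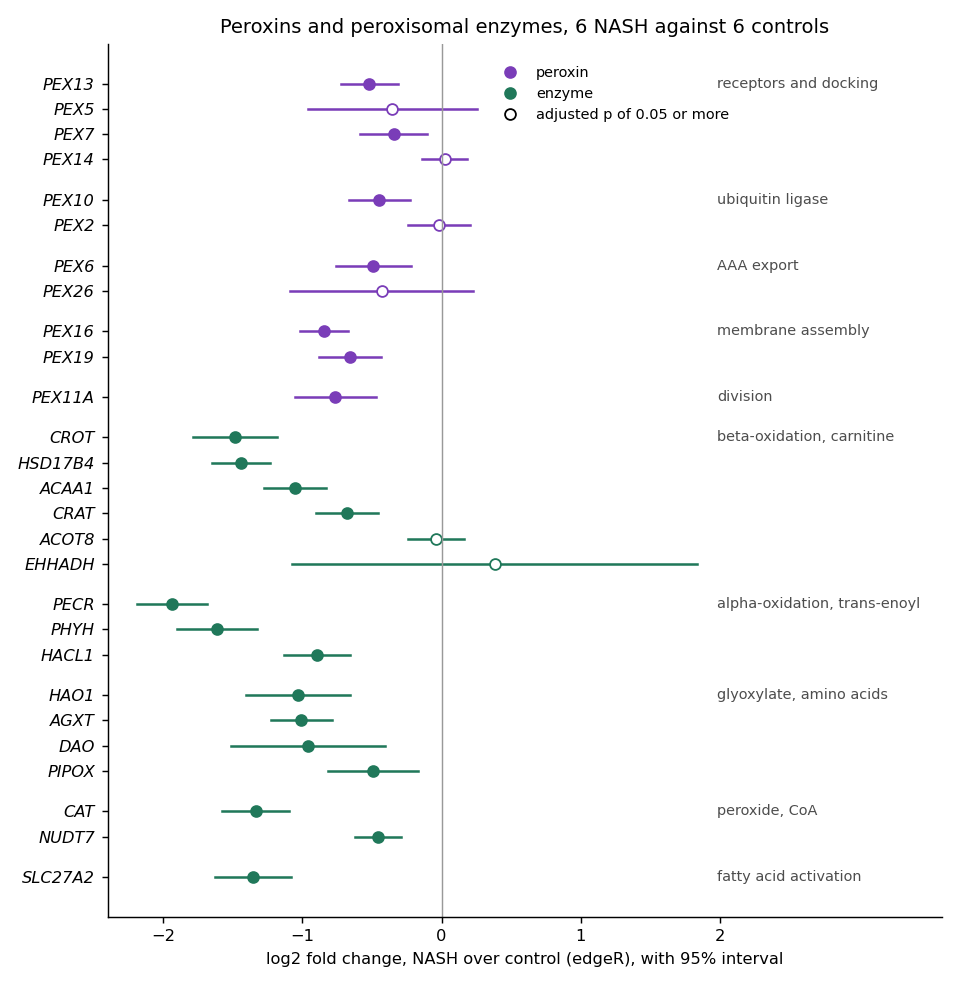
Log2 fold change of NASH over control for the 27 members by role, with 95% intervals from edgeR. Filled points have an adjusted p under 0.05. Enzymes reach down to -1.94 (*PECR*) and peroxins to -0.85 (*PEX16*), and 6 members are open. With library size alone 7 of them (*PEX5*, *PEX7*, *PEX2*, *PEX10*, *PEX26*, *ACOT8* and *NUDT7*) turn positive.

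Among the member peroxins, *PEX16* and *PEX19* of membrane assembly and *PEX11A*, the only division gene among them, were the furthest below controls. *PEX16* encodes a membrane protein of the assembly machinery, and *PEX19* the soluble chaperone that brings membrane proteins to the organelle. *PEX16* ranged from 13.9 to 17.1 CPM (counts scaled to the depth of the library) in controls with a median of 14.6, and from 7.36 to 9.45 with a median of 8.43 in NASH. The lowest control lay well above the highest NASH animal, and the log2 fold change was -0.85 ± 0.081 (SE, edgeR, n = 6 per group, adjusted p = 2.87e-06). *PEX19* had 64.5 to 100.1 CPM in controls (median 81.1) and 48.9 to 56.9 in NASH (median 52.9). Its NASH animals were tightly grouped under all controls, at 63.4% of the control level (log2 fold change -0.66 ± 0.10, edgeR adjusted p = 0.00016). *PEX11A*, which elongates the membrane ahead of division and is itself a PPARA target, had 19.7 to 32.4 CPM in controls (median 28.4) and 12.9 to 18.9 in NASH (median 16.8). These groups were also apart, by a narrow margin, with a log2 fold change of -0.76 ± 0.13 (edgeR adjusted p = 0.000366).

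Of the import receptors and docking proteins, *PEX7* and *PEX13* passed the test, and *PEX5* and *PEX14* did not. *PEX5* had a fold change like that of *PEX7*, with a wider interval. PEX5 carries most matrix enzymes, which end in the PTS1 signal, and PEX7 carries the few with the amino-terminal PTS2 signal, thiolase (*ACAA1*) and phytanoyl-CoA hydroxylase (*PHYH*) among them. *PEX7* ranged from 18.0 to 31.7 CPM in controls (median 26.7) and from 19.5 to 23.2 in NASH (median 20.3). Control 31 lay under every NASH animal and the other controls lay above them all, and the gene was lower at -0.34 ± 0.11 on the log2 scale (edgeR adjusted p = 0.0190). *PEX5* spanned 79.2 to 187 CPM in controls (median 144) and 51.0 to 132 in NASH (median 115), and its fold change of -0.35 ± 0.28 did not pass (edgeR adjusted p = 0.307, 95% interval -0.96 to 0.25). Without NASH 20 it was -0.21. *PEX13* and *PEX14* encode the docking proteins at the membrane. *PEX13* was lower in NASH, with 41.9 to 63.1 CPM in controls (median 48.5), 31.8 to 38.8 in NASH (median 34.7) and no overlap (-0.52 ± 0.094, edgeR adjusted p = 0.000483). *PEX14* stood at 17.9 to 20.3 CPM in controls (median 18.9) and 17.2 to 21.9 in NASH (median 19.3), a log2 fold change of 0.023 with a 95% interval of -0.14 to 0.18.

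In the ubiquitin ligase and the receptor recycling complex, *PEX10* and *PEX6* passed the test, and *PEX2* and *PEX26* did not. *PEX2* and *PEX10* are RING subunits of the ligase that marks PEX5 for recycling. *PEX10* was lower and its groups apart (16.1 to 21.5 CPM in controls, median 17.9, and 11.4 to 15.4 in NASH, median 13.1), at -0.45 ± 0.10 on the log2 scale (edgeR adjusted p = 0.00218). *PEX2* overlapped between groups, from 40.9 to 59.9 CPM in controls (median 44.1) and 40.2 to 53.8 in NASH (median 45.3), with a fold change of -0.018 ± 0.10 (edgeR adjusted p = 0.895). PEX6 is an ATPase of the motor that extracts the ubiquitinated receptor, and PEX26 anchors that motor in the membrane. *PEX6* was lower, at 71.2% of controls (48.4 to 67.3 CPM in controls, median 55.9, 28.2 to 49.4 in NASH, median 41.3, edgeR adjusted p = 0.00485), and the highest NASH animal reached just above the lowest control. *PEX26* did not pass (36.3 to 47.9 CPM in controls, median 42.4, 6.87 to 38.4 in NASH, median 35.5, log2 fold change -0.43 ± 0.30, edgeR adjusted p = 0.253). This value rested on NASH 41, which had 6.87 CPM where the other NASH animals had 35.1 to 38.4. Without NASH 41 the fold change was -0.22 and the edgeR adjusted p 0.0285.

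**Figure D2:**
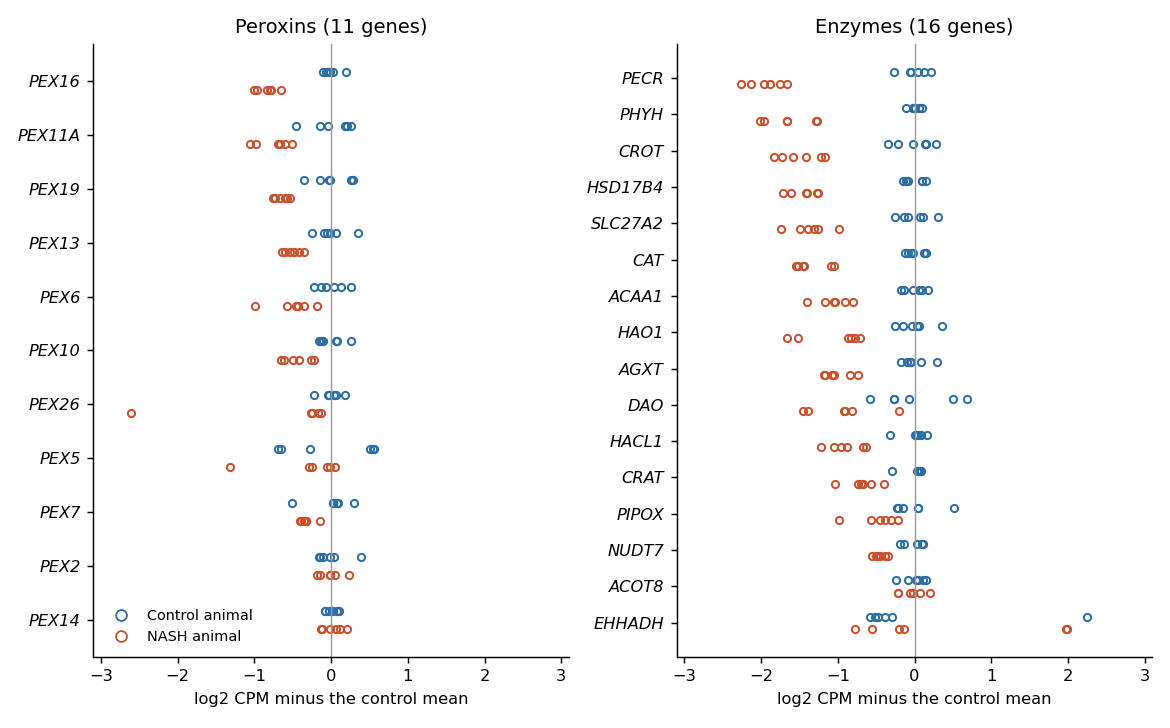
Level of each member in each animal, as log2 CPM minus the mean of the 6 controls, for the 11 peroxins (left) and 16 enzymes (right). Blue circles are controls and orange circles NASH animals. The groups are apart for 5 peroxins and 12 enzymes, and *EHHADH*, *PEX5* and *PEX26* have animals far from the rest of their group. The zero line rests on the TMM scaling, and with library size alone the fold changes of 7 members turn positive.

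Of the 6 members of peroxisomal beta-oxidation and carnitine transfer, 4 were lower in NASH. *HSD17B4* encodes D-bifunctional protein, which hydrates and dehydrogenates very long-chain, branched and bile acid intermediates. It had 1044 to 1279 CPM in controls (median 1158) and 352 to 480 in NASH (median 434). The highest NASH animal lay far under the lowest control, and the log2 fold change was -1.44 ± 0.10 (edgeR adjusted p = 2.13e-07). *ACAA1*, the thiolase that releases acetyl-CoA at the end of each round, fell from 1181 to 1511 CPM (median 1362) to 506 to 765 (median 650), a log2 fold change of -1.05 ± 0.10 with an edgeR adjusted p of 3.66e-06. Chain-shortened products leave as carnitine esters, made by the octanoyl- and acetyltransferases CROT and CRAT. *CROT* ranged from 199 to 307 CPM in controls (median 265) and from 71.3 to 112 in NASH (median 89.9), at 35.7% of the control level (edgeR adjusted p = 2.47e-06). *CRAT*, which also works in mitochondria, was less far down, with 137 to 178 CPM in controls (median 175), 82.4 to 128 in NASH (median 105) and a log2 fold change of -0.68 ± 0.10 (edgeR adjusted p = 0.000111).

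The other members of beta-oxidation did not pass the test. *ACOT8*, a broad acyl-CoA thioesterase, overlapped at 12.0 to 15.9 CPM in controls (median 14.6) and 12.2 to 16.5 in NASH (median 13.9), and its log2 fold change of -0.040 had a 95% interval of -0.24 to 0.16. *EHHADH* encodes the L-bifunctional protein, the classical PPARA-induced counterpart of HSD17B4. It stood at 2 levels that cut across the groups. Control 32 had 616 CPM, NASH 2 had 511 and NASH 65 had 518, whereas the other 9 animals lay between 76.2 and 118. Its fold change of 0.38 ± 0.67 (edgeR adjusted p = 0.655) was set by these animals, since it was 1.31 (adjusted p = 0.0585) without Control 32, 0.00086 without NASH 2 and -0.014 without NASH 65. None of these fits passed the threshold.

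PHYH and HACL1 prepare branched chains for beta-oxidation, by taking 3-methyl-branched fatty acids such as phytanic acid through alpha-oxidation. PECR reduces trans-enoyl-CoA. All 3 genes were lower, with no overlap. *PECR* was the lowest of all members relative to controls, with 518 to 720 CPM in controls (median 621) and 129 to 196 in NASH (median 164). That is 26.1% of the control level, a log2 fold change of -1.94 ± 0.12 (edgeR adjusted p = 1.13e-07), and fewer than 1% of all genes tested had a lower one (percentile 0.862). *PHYH* had 2604 to 2990 CPM in controls (median 2782) and 696 to 1161 in NASH (median 887). The controls were close together and the NASH animals more spread out, with coefficients of variation of 4.76% and 21.9%, and the log2 fold change was -1.61 ± 0.13 (edgeR adjusted p = 8.1e-07). *HACL1* went from 175 to 245 CPM (median 224) in controls to 94.4 to 141 (median 116) in NASH, or 53.8% of controls (edgeR adjusted p = 2.19e-05).

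Glyoxylate and amino acid oxidation was covered by 4 members, and all were lower in NASH. *HAO1*, glycolate oxidase, makes glyoxylate and hydrogen peroxide, and *AGXT*, alanine-glyoxylate aminotransferase, turns glyoxylate into glycine before it can become oxalate. *AGXT* had 198 to 275 CPM in controls (median 217) and 99.5 to 135 in NASH (median 107), and *HAO1* had 334 to 509 (median 398) and 126 to 243 (median 221). The producer and the remover of glyoxylate were thus at near the same share of controls, 49.0% for *HAO1* and 49.7% for *AGXT*, each with its groups apart (edgeR adjusted p = 0.000267 and 4.27e-06). *DAO*, D-amino acid oxidase, ranged widely within each group, from 29.5 to 71.0 CPM in controls (median 39.2) and from 16.0 to 38.3 in NASH (median 23.3). Its groups overlapped, and the log2 fold change of -0.96 ± 0.25 had the largest standard error of the called members (edgeR adjusted p = 0.0066). *PIPOX*, which oxidises pipecolic acid and sarcosine, overlapped as well (19.7 to 33.0 CPM in controls, median 22.3, 11.6 to 19.9 in NASH, median 17.3) and was lower at -0.49 ± 0.15 (edgeR adjusted p = 0.0137).

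*CAT* encodes catalase, which removes the hydrogen peroxide made by the organelle's oxidases. It had 10081 to 12113 CPM in controls (median 10701) and 3756 to 5295 in NASH (median 4014). Every NASH animal held less than the lowest control, and the log2 fold change was -1.34 ± 0.11 (edgeR adjusted p = 8.7e-07). *NUDT7*, a hydrolase of coenzyme A and its esters inside the organelle, was at 12.3 to 15.1 CPM in controls (median 14.6) and 9.56 to 11.1 in NASH (median 10.2), which is 72.9% of controls (edgeR adjusted p = 0.000241). *SLC27A2*, a membrane-bound synthetase that activates very long-chain fatty acids and bile acids, had 223 to 327 CPM in controls (median 264) and 79.7 to 134 in NASH (median 104). It stood with the far-lowered enzymes at -1.35 ± 0.13 on the log2 scale (edgeR adjusted p = 2.39e-06).

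Set side by side, 7 of 11 peroxins and 14 of 16 enzymes were lower, and the groups were apart for 5 and 12. A log2 fold change of -1 or lower was reached by 9 enzymes and 0 peroxins, against 5.43% of all genes. The median was -0.45 for peroxins and -1.02 for enzymes, and with library size alone, which raised the median of all genes to 0.48, it was 0.036 and -0.54. Relative to the median of all genes the peroxins stood at -0.44 under both scalings, and the enzymes at -1.01 and -1.02. This likeness follows by construction, since a scaling factor shifts every gene of an animal alike. In each animal the median log2 CPM of the peroxins, less the control mean, was -0.085 to 0.26 in controls and -0.61 to -0.25 in NASH. For the enzymes it was -0.20 to 0.061 in controls and -1.39 to -0.72 in NASH. The enzyme median minus the peroxin median within an animal, which the scaling barely touches, was -0.23 to 0.098 in controls and -0.84 to -0.46 in NASH. All 6 NASH animals were therefore under all 6 controls in this difference as well. It is a description of these genes without a test, since the members were chosen with earlier results known.

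Without any scaling beyond the total, the 16 enzymes held 1.58 ± 0.095% of all counts in controls and 0.888 ± 0.11% in NASH (SD, n = 6 each). *CAT* alone had 0.929 ± 0.083% and 0.512 ± 0.068%, and the other 15 enzymes together 0.655 ± 0.025% and 0.375 ± 0.052%. The enzymes' share was thus smaller in NASH with and without *CAT*. The peroxins' share was 0.0440 ± 0.0047% in controls and 0.0460 ± 0.0035% in NASH, with overlapping animals. Among the peroxins *PEX16* alone was lower in NASH without factors that scale the bulk of the genes, where 7 were lower with TMM, and among the enzymes 10 were, where 14 were lower with TMM. In bulk liver, fewer hepatocytes and less RNA per hepatocyte cannot be told apart.

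**Figure D3:**
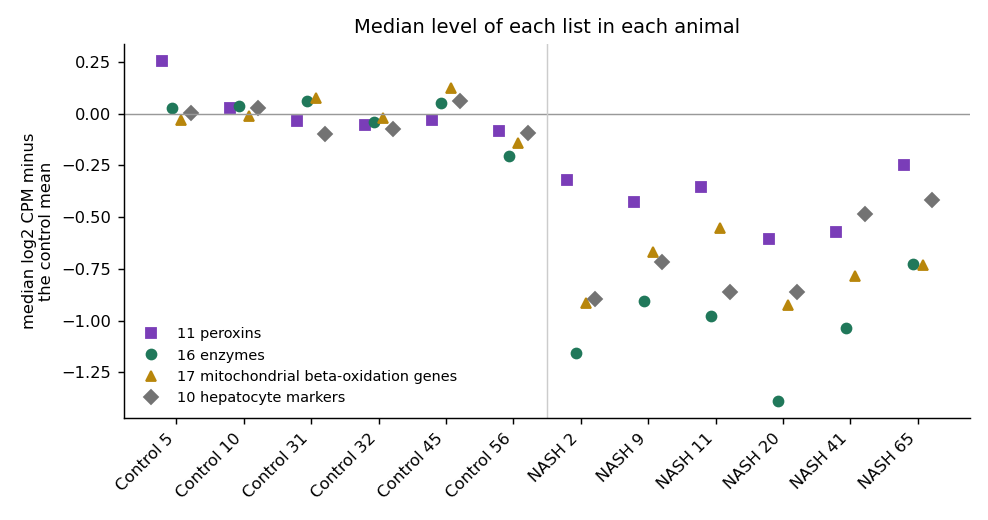
Median log2 CPM of each list in each animal, minus its control mean (y axis), for peroxins, enzymes, mitochondrial beta-oxidation genes and hepatocyte markers. In the 6 NASH animals the enzyme median lies between -1.39 and -0.72 and the peroxin median between -0.61 and -0.25. With library size alone the median fold change of the peroxins turns to 0.036.

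The animals differed among themselves within the NASH group. NASH 65 had the highest level of its group for 10 of 16 enzymes and 6 of 11 peroxins, and NASH 20 the lowest for 6 peroxins. NASH 41 was lowest for 6 enzymes. Among controls, Control 56 was lowest for 9 enzymes, and Control 5 was highest for 5 peroxins and 6 enzymes. Leaving out each animal in turn kept 14 enzymes and 7 to 8 peroxins lower, the eighth being *PEX26*.

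Markers of the liver's cell types moved between the same groups. Of 10 hepatocyte markers 9 were lower (median log2 fold change -0.62), from *TTR* at -2.21 to *ASGR1* at -0.19 (0.29 with library size alone), whose call was lost with upper-quartile factors and in 7 of the 12 fits without 1 animal. Their summed level was 114595 to 136453 CPM in controls and 51116.6 to 76893.8 in NASH. Of the stellate cell and fibroblast markers, 7 of 8 were higher (*COL1A1*, 4.20) and 1 lower (*LRAT*, -0.58), summing to 629 to 750.3 CPM in controls and 1204 to 2449 in NASH. All 5 cholangiocyte markers were higher (*EPCAM* 3.21, *KRT19* 1.64), with sums of 73.5 to 115 and 301 to 537 CPM. All 4 erythroid markers were also higher (*SLC4A1* 6.37, from 5.63 without NASH 41 to 7.35 without Control 45, and *KLF1* 2.32, or 1.64 without NASH 41), with sums of 1.24 to 6.31 CPM and 25.9 to 271, the last of these in NASH 41. *SLC4A1* had 0 counts in Controls 10, 31 and 56, and neither gene passed with limma-voom. The macrophage (287 to 511 and 440.2 to 621 CPM), lymphocyte (55.2 to 109 and 37.2 to 70.3) and endothelial lists (462 to 597 and 501 to 733) overlapped between groups. In these, *CD68* (0.68), *CD79A* (1.48) and *VWF* (1.45) were the highest and *MARCO* (-1.28), *CD3E* (-1.07) and *LYVE1* (-0.82) the lowest. No marker was at or under 3 counts in every animal of a group, and all these calls are from edgeR with adjusted p under 0.05. The part of these markers in the peroxisomal values was not tested.

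The wider set of peroxisomal genes, chosen by function, gave similar counts. Of 50 genes listed, 40 were in the table, 29 of them lower, 3 higher and 8 not passing (edgeR), with a median log2 fold change of -0.67, where library size alone gave 17 lower and 11 higher. The groups were apart for 22 lower and 2 higher genes. Further enzymes of oxidation made up 17 of the lower genes (of 20 in the table, 0 higher) with a median of -0.98. Of all genes tested, 26.7% were lower and 27.6% higher, and the groups were apart for 15.7% lower and 18% higher.

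*ECI2* and *DECR2*, which prepare unsaturated chains, were both at -1.32 on the log2 scale, and *BAAT*, which conjugates bile acids to taurine or glycine, was at -1.34. *PRDX5*, a peroxidase shared with mitochondria and the cytosol, was at -1.15. The protease TYSND1 trims PTS2 enzymes after import, and its gene stood at -1.29. *AMACR* (-1.41), *DHRS4* (-1.48) and *ACOT4* (-1.06) were lower on count rows that other symbols share, so that their reads cannot be assigned to these genes alone. *ACOT4* lost its call in 6 of the 12 fits without 1 animal. *NUDT12*, an NADH hydrolase, was at -1.52 with overlapping groups.

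Of 3 genes of ether lipid synthesis 2 were lower and 1 higher. *AGPS*, the second enzyme of the pathway and a PTS2 cargo of PEX7, was at -1.64 with 285 to 746 CPM in controls and 115 to 171 in NASH, whereas *FAR1*, the reductase that supplies fatty alcohol, was higher at 0.66 (8.46 to 24.8 and 27.5 to 34.7 CPM, edgeR adjusted p = 0.0145). Of 8 further membrane proteins 5 were lower and 2 higher. The membrane protein *PXMP4* was lower at -1.17, with 3.44 to 5.15 CPM in controls, 1.43 to 2.20 in NASH and no overlap. *ABCD4*, whose product acts at lysosomes in cobalamin export, was higher at 0.58, and *MPV17*, a mitochondrial inner membrane protein, at 0.72. These 3 higher genes, *FAR1*, *ABCD4* and *MPV17*, were singled out after their values were seen.

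Among further peroxins *PEX11G*, a relative of *PEX11A*, was lower at -1.19 ± 0.16 with 8.52 to 14.6 CPM in controls and 3.57 to 6.56 in NASH, and was the lowest peroxin in the table. *PEX3* was not analysed here. Among 5 genes of division and turnover 2 were lower and 0 higher, beside 26.7% and 27.6% of all genes, with a median of -0.19.

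**Figure D4:**
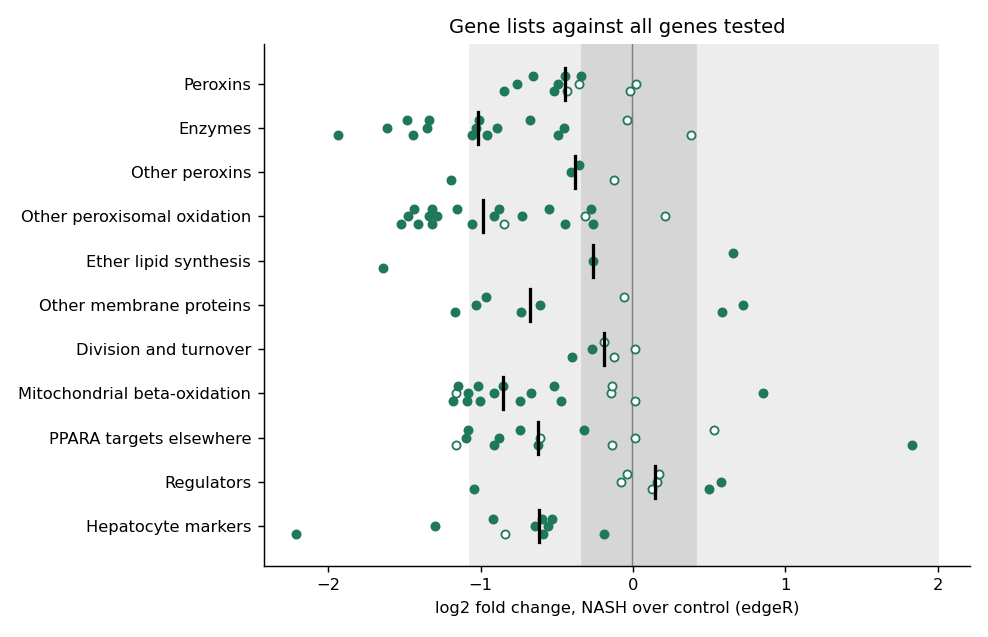
Log2 fold change of NASH over control for each gene of each list (points, filled where the edgeR adjusted p is under 0.05) with the list's median (black bar). The dark and light bands hold the middle 50% and 90% of all genes tested. The enzymes (-1.02) and further oxidation genes (-0.98) lie lowest, and the regulators at 0.14 (0.012 without Control 5). With library size alone the peroxin median is 0.036 and the median of all genes 0.48.

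Of the 8 regulators analysed, 1 was lower and 2 were higher, beside 26.7% and 27.6% of all genes. *PPARA* itself had 26.2 to 139 CPM in controls (median 124) and 96.2 to 146 in NASH (median 124). Both medians were alike, with a log2 fold change of 0.16 ± 0.30 (edgeR adjusted p = 0.682), and Control 5 had a level far under all others. Without Control 5 the *PPARA* fold change was -0.048 (edgeR adjusted p = 0.729), and the median of the regulators moved from 0.14 to 0.012. Its obligate partner *RXRA* was lower at -1.04 ± 0.19 (162 to 375 and 108 to 170 CPM, edgeR adjusted p = 0.000426). *PPARG* was higher at 0.50 ± 0.18 (2.44 to 5.05 and 3.85 to 6.20 CPM, edgeR adjusted p = 0.0329), a call that was lost in 8 of the 12 fits without 1 animal. The other regulator called higher, *PPARD*, was at 0.58 ± 0.14 with overlapping groups (edgeR adjusted p = 0.00414), and was named after its value was seen. The coactivator *PPARGC1A* was at -0.078 ± 0.23 (edgeR adjusted p = 0.794).

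Of 13 PPARA target genes outside the peroxisome 7 were lower and 1 higher, beside 26.7% and 27.6% of all genes, with a median of -0.62. With library size alone 4 were lower and 4 higher. *CPT1A*, *CPT2*, *ACADM*, *ACADVL* and *SLC25A20* are in this list and in the next. Of 17 genes of mitochondrial beta-oxidation 12 were lower and 1 higher (4 higher with library size alone), with a median log2 fold change of -0.85. The 17 genes ran from *ECHS1*, the short-chain hydratase, at -1.18 (711 to 985 and 339 to 442 CPM) to *ACADL*, the long-chain dehydrogenase, at 0.85 (4.16 to 11.4 and 8.71 to 13.9 CPM). In each animal their median lay at -0.14 to 0.12 in controls and -0.93 to -0.55 in NASH, between the ranges of the peroxins and the enzymes in NASH and overlapping both. No difference between the organelles was tested.

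**Figure D5:**
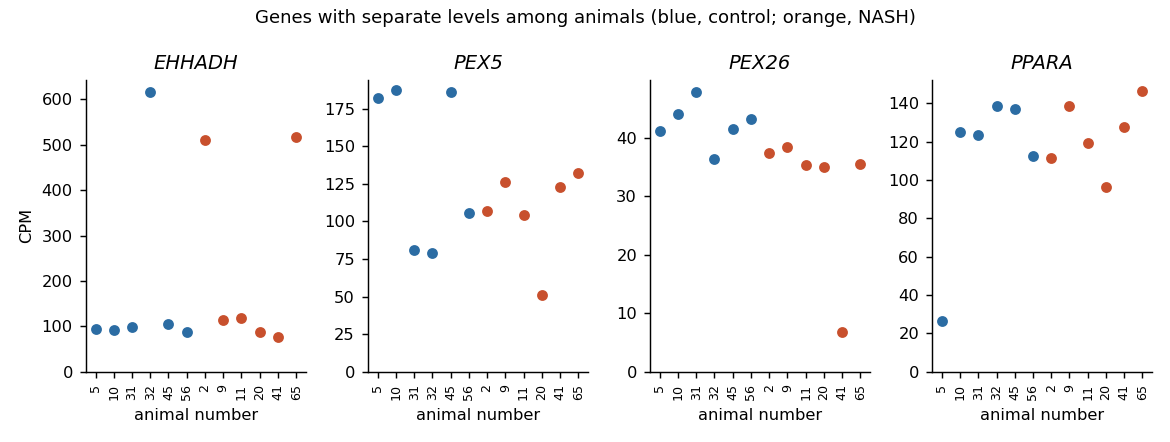
CPM of 4 genes in each animal (x axis, animal number; blue, controls; orange, NASH), each axis starting at 0. *EHHADH* is high in Control 32, NASH 2 and NASH 65 and *PEX26* is low in NASH 41, *PPARA* is low in Control 5, and *PEX5* takes separate levels within the controls.

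Some genes took separate levels among animals of the same group. Counts are per assembled locus, and whether reads of *EHHADH*, *PEX5*, *PEX26* or *PPARA* also fell in other rows was not tested, so that these values may not hold the whole gene's level. *PEX5* stood at 182, 187 and 186 CPM in Controls 5, 10 and 45 and at 81.0, 79.2 and 106 in Controls 31, 32 and 56. The NASH animals lay at 104 to 132, under the higher set of controls, other than NASH 20 at 51.0. The low controls for *PEX5* included Control 32, which was the high control for *EHHADH*. The values of *PEX5* and *EHHADH* overlapped between groups, and neither gene passed the test.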

How the data were processed

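Liver messenger RNA of 12 animals was sequenced by the authors as stranded single reads of 75 nucleotides. The authors trimmed the reads (Trimmomatic 0.38.0), mapped them to Cavpor3.0 (HISAT2 2.1.0), ignored multimapped reads and deposited raw counts per StringTie (1.3.6) locus or gene, in 39061 rows without symbols. The authors also deposited log2 values (rlog transformation of DESeq2) for 11896 human orthologue symbols, after removing genes with under 200 reads in total. Symbols were paired with count rows by rerunning that transformation, which gave the deposited values to within 8.4e-07 and put the 11896 symbols on 11031 rows, 1515 of the symbols on shared rows. All count columns belonged to these animals, and each animal is a replicate of its own. Counts of a pair of animals in the same group differed by more than counting error (chi-square over degrees of freedom 44.5 to 107.7, 30 pairs).

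Counts were tested in R 4.3.3 with edgeR 4.0.16 (TMM factors, library sizes summed over all rows, robust glmQLFit, glmQLFTest), with Benjamini-Hochberg adjustment over 11896 symbols and a threshold of 0.05. Library sizes multiplied by the TMM factors gave CPM, and a prior count of 2 was added for log2 CPM. The standard error is the absolute log2 fold change over the square root of F. The procedure was tested on simulated counts. Alternatives were RLE and upper-quartile factors, library size alone, DESeq2 1.42.0, voom and rlog values in limma 3.58.1, filterByExpr, all rows holding a count, each animal left out, an adjusted p under 0.01, and glmTreat with a limit of 1 on the log2 scale. The genes named are all members, further peroxisomal genes that passed and moved by 1 or more on the log2 scale, *PEX3*, 4 regulators (*PPARA*, *PPARG*, *PPARGC1A*, *RXRA*), and the highest and lowest gene of the mitochondrial and marker lists. *PPARD*, *FAR1*, *ABCD4* and *MPV17* were added once their values were known. Some genes that the rule takes in are not reported here. The members and lists were chosen with earlier results of these data known. Figures were drawn with matplotlib 3.10.9 in Python 3.11.15.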

Additional observations from a re-analysis of the deposited data

Results flagged for a closer look

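In 14 of 124 groups of 6 values examined, the highest or lowest animal stood apart from the others of its group (Dixon's test at the 95% level). Chance gives about 5% of groups. Among the members these were *EHHADH* in Control 32 (616 CPM, the next control at 106), *PEX26* in NASH 41 (6.87), *PEX5* in NASH 20 (51.0), *PEX7* in NASH 11 (23.2), *PEX2* in Control 5 (59.9), *CRAT* in Control 56 (137), *HACL1* in Control 32 (175) and *PIPOX* in Control 45 (33.0). The median of the peroxins, less the control mean, stood apart in Control 5 (0.26, the next control at 0.028). Among other genes they were *PPARA* in Control 5 (26.2 CPM, the next control at 113), *ECI2* in Control 31 (663), *ACADL* in Control 10 (11.4), *MARCO* in NASH 41 (55.1) and *LYVE1* in Control 56 (151).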

How the results depend on the processing

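The calls of the 27 members were unchanged with DESeq2, limma-voom, limma on the rlog values, RLE and upper-quartile factors and filterByExpr. *PEX7* and *PIPOX* lost theirs with every row kept and at a threshold of 0.01. Of 324 fits of a member without 1 animal, 323 gave the same call. Library size alone called 911 of all genes lower and 7600 higher (3171 and 3279 in the main test). It gave 1 peroxin lower and 2 higher with a median of 0.036, and 10 enzymes lower and 1 higher with a median of -0.54. Of the further peroxisomal genes it gave 17 lower and 11 higher with a median of -0.18. It gave 4 regulators higher (median 0.61), and 4 PPARA targets lower and 4 higher (median -0.14). It gave 4 mitochondrial genes higher (median -0.37), with 10 lower at an unadjusted p under 0.05. Of the genes named it turned *PEX5* (0.13), *PEX7* (0.14), *PEX2* (0.47), *PEX10* (0.036), *PEX26* (0.052), *ACOT8* (0.45), *NUDT7* (0.029), *PPARGC1A* (0.41) and *ASGR1* (0.29) positive. *PEX2* and *ACOT8* also turned positive, without passing, with upper-quartile factors (0.054 and 0.030), filterByExpr (0.046 and 0.023) and every row kept (0.078 and 0.055). *PPARGC1A* did so with limma-voom (0.053), on the rlog values (0.00014), with every row kept (0.023) and without Control 10 (0.094) or Control 56 (0.075). The cause of the shift with library size alone was not tested.

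The rlog transformation shrinks differences by construction, and its medians were -0.30 for peroxins, -0.66 for enzymes, -0.38 for further peroxisomal genes, -0.39 for PPARA targets and -0.55 for mitochondrial genes. A threshold of 0.01 left 1 regulator higher. Against an absolute log2 fold change of 1 (glmTreat), which called 251 genes lower and 845 higher, 6 enzymes and 6 further peroxisomal genes were lower, with 0 of the latter higher (0 at an unadjusted p under 0.05), and 0 peroxins (0 at an unadjusted p under 0.05), 0 PPARA targets (0) and 0 mitochondrial genes (2) were lower, 0 mitochondrial genes higher (0), and 0 regulators lower or higher (0). Without 1 animal, 1 to 2 regulators and 1 to 2 PPARA targets were higher. DESeq2 tested 11881 genes and filterByExpr 11867. The lowest count of a member in any animal was 178 (*ACOT8*). No paired analysis was possible because the groups share no animal number.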
